A study of Mus musculus with 12 samples.

Results

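F4/80hi macrophages (Mϕ) from the peritoneum of mice treated with the mPGES-1 inhibitor compound III (CIII) were compared with the same cells from mice treated with vehicle (VEH) at day 6 of zymosan-induced peritonitis. The comparison uses 6 of the 12 mRNA libraries of the series, 3 per treatment with replicate numbers 1 to 3, and it covers the genes whose normalized count averaged 10 or more in these 6 libraries. This minimum left 8206 of 47643 gene identifiers, with Polr2d at a mean of 10.001 just inside it and Gm42467 at 9.998 just outside. Female C57/BL6 mice aged 8 to 12 weeks were injected i.p. with zymosan A at 5 mg/kg, a yeast cell wall preparation that causes a self-limiting inflammation. From day 1 on they received either CIII at 25 mg/kg or VEH, a solution of Tween-80, carboxymethyl-cellulose and NaCl, by a daily i.p. injection. Both groups thus carried the zymosan peritonitis, and no F4/80hi library from a naive mouse was analysed here. Cells were sorted from lavages as CD45+ and CD11b+ with high F4/80 and MerTK. In the gating scheme of the study, cells positive for both CD11c and MHC class II were first set aside as dendritic cells, and cells without CD11b as lymphoid. MHC class II protein therefore acted ahead of the F4/80hi gate through this step, and F4/80lo Mϕ were in addition selected for it. Neither pooling of mice nor pairing of libraries is described. With the replicate number as a block, p-values measure the spread of the same-number differences among these samples.

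The enzyme mPGES-1, encoded by Ptges, makes prostaglandin E2 (PGE2) from the product of the cyclooxygenases Ptgs1 and Ptgs2. PGE2 acts on Mϕ through the receptors Ptger2 and Ptger4, which raise cyclic AMP and are known to dampen inflammatory and antigen-presenting functions. F4/80hi peritoneal Mϕ include the long-lived resident cells, which depend on the transcription factor Gata6, take up apoptotic cells and normally show little MHC class II. Monocyte-derived Mϕ that enter during inflammation can acquire F4/80 with time.

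The libraries held between 691665 and 1743889 reads on genes, and a count of 0 allows up to 3 reads, or 1.72 to 4.34 reads per 1000000 (counting error only). Markers of the gate were present in all 6 libraries. Adgre1, which encodes F4/80, stood at 1025, 1207 and 404 normalized counts in VEH and at 1035, 1068 and 351 in CIII for numbers 1, 2 and 3, the order used for all values below. Itgam (CD11b) stood at 7817, 5923 and 2460.0 in VEH and at 8532, 6142 and 3396 in CIII, and Ptprc (CD45) at 136, 188 and 799 in VEH and at 439, 230.0 and 1189 in CIII. In both treatments the library of number 3 stood apart. Gata6 was at 33.2, 47.0 and 2.10 in VEH and at 20.9, 34.9 and 5.47 in CIII, and Ccr2, a receptor of inflammatory monocytes, at 50.5, 18.3 and 1321 in VEH and at 277, 105 and 672 in CIII. The first principal component, with 55.1% of the variance, parted number 3 from numbers 1 and 2. Gm42418, a transcript over ribosomal RNA sequence, took 7.82% and 2.86% of the reads of the VEH and CIII libraries of number 3 and at most 0.579% elsewhere. Values without number 3 are therefore given for the counts over all genes at an unadjusted p under 0.05. They are also given for the MHC class II, ribosomal and respiratory medians.

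At day 6 the MHC class II genes were higher and the genes of the cytoplasmic ribosome and of the respiratory chain were lower in CIII than in VEH F4/80hi Mϕ in nearly all pairs, but 0 of 8206 genes (0%) passed an adjusted p of 0.05 in limma with a block for the replicate number. The smallest adjusted p was 0.102, for Rpl41. At an unadjusted p under 0.05, 449 genes (5.47%) were higher and 579 (7.06%) lower in CIII. In numbers 1 and 2 alone 412 were higher and 455 lower, and the smallest adjusted p was 0.356. All 3 pairs were higher in CIII for 1525 genes (18.6%) and lower for 1406 (17.1%). The CIII values lay above all VEH values for 414 genes (5.05%) and below them for 499 (6.08%). DESeq2 on the recovered whole reads, with the same block, called 6 genes higher (0.0731%) and 53 lower (0.646%) at an adjusted p under 0.05. The 6 higher genes were H2-Ab1, H2-Eb1, H2-Aa, Cd74, Atp2b4 and Cx3cr1, and the 53 lower genes held 27 ribosomal protein genes and 7 of the respiratory chain and ATP synthase. The split depended on the scale. With each library set to the same total, 723 genes were higher and 441 lower at p under 0.05, and the median log2 difference of all genes moved from 0.06 to 0.16.

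MHC class II molecules present peptides to CD4+ T cells. H2-Aa and H2-Ab1 encode the chains of I-A, H2-Eb1 a chain of I-E, Cd74 the invariant chain that guides them, and H2-DMa and H2-DMb1 the chaperone that loads peptide. In their promoters a conserved X box and Y box are known to recruit the complex that the coactivator Ciita joins. The 150 bases before the start of 3 members are shown because they hold the letters of both boxes, with CTNGNAACT (X box letters) and TGATTGG (Y box letters) in capitals.
H2-Aa: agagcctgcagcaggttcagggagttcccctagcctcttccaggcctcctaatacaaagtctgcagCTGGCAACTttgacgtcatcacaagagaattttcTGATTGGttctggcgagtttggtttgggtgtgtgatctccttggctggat
H2-Eb1: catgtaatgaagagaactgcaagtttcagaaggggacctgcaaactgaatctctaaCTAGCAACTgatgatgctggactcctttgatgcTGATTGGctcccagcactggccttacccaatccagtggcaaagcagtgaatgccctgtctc
H2-DMb1: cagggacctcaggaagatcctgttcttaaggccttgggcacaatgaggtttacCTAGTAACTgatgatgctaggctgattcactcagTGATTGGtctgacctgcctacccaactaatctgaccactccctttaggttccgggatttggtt
The sequences are from RefSeq on GRCm38.p6 and lie at chr17:34287824-34287973 (minus strand), chr17:34305717-34305866 (plus strand) and chr17:34153041-34153190 (plus strand). The Y box letters began 50, 61 and 63 bases before the start and the X box letters 84, 94 and 97 bases before it. Searched on both strands in 300-base promoters, each motif was found in 3 of the 4 MHC class II genes with a promoter entry. Among the 6474 tested genes with an entry, 11.7% held TGATTGG and 4.39% CTNGNAACT. The X box letters were set after these sequences had been seen.

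H2-Ab1 (chr17:34257689-34269419) stood at 374, 157 and 542 normalized counts in VEH and at 1338, 385 and 3800.2 in CIII. The CIII library exceeded the VEH library of its number in every pair, but the groups overlapped because CIII number 2 lay below VEH number 3. The log2 difference was 1.98 (SE 0.31, unadjusted p = 0.000107), a fold of 3.94, with an adjusted p of 0.148 in limma and of 3.6e-05 in DESeq2. H2-Eb1 (chr17:34305867-34316674) stood at 145, 90.1 and 347 in VEH and at 632, 162 and 3413 in CIII, a log2 difference of 2.08 (SE 0.40). H2-Aa (chr17:34282744-34287823) stood at 592, 251 and 657 in VEH and at 1769, 490.3 and 3486 in CIII, a log2 difference of 1.65 (SE 0.31). For both genes the largest value was that of CIII number 3 and the smallest that of VEH number 2. Cd74 stood at 170.2, 142 and 556 in VEH and at 749, 179 and 2241 in CIII, with a log2 difference of 1.49 (SE 0.35, unadjusted p = 0.0020). Its pair of number 2 differed little. Ciita, which is itself a tested gene of the MHC class II list, was named after its values had been seen. It stood at 1.33, 0 and 13.6 in VEH and at 14.4, 1.20 and 106 in CIII.

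The 7 tested genes of the MHC class II list (of 11 listed) include the coactivator Ciita. All 7 were higher in CIII in all 3 pairs, against 18.6% of all genes, and 6 had an unadjusted p under 0.05, against 5.47% of all genes higher. The groups did not overlap in 0 of them, against 5.05% of all genes. Their median log2 difference was 1.65, a fold of 3.14, beside 0.06 for all genes, and it was 1.84, 0.84 and 2.41 within numbers 1, 2 and 3. Without number 3 it was 1.27. The seventh gene, H2-DMa, had a log2 difference of 0.58 (unadjusted p = 0.0821). The 11 genes took 0.157%, 0.0863% and 0.221% of the reads in VEH and 0.542%, 0.157% and 1.44% in CIII. B cells and dendritic cells also make MHC class II, and the gating scheme sets aside dendritic cells by CD11c with MHC class II, and lymphoid cells where they lack CD11b. The summed level of the 15 B cell markers was 73.2 to 87.0 in VEH and 61.8 to 188 in CIII, of which Bank1 gave 24.1 to 94.6. By number, the sum was 83.8, 73.2 and 87.0 in VEH and 188, 94.9 and 61.8 in CIII. In number 1, 12 of the 15 markers were higher and 0 lower in CIII, in number 2 they were 7 and 3, and in number 3 they were 6 and 8. The markers higher in every pair were 4 (Ighd, Iglc2, Cd79b and Ebf1), all under the minimum at 7.94 or less, and 0 were lower in every pair. A count of 0 in VEH still allows up to 3 reads. The 3 tested B cell markers had median log2 differences of 3.14, 1.94 and -1.08 within the numbers, and their part in the MHC class II result was not tested. The summed level of the 14 dendritic cell markers was 43.0 to 236 in VEH and 64.5 to 129 in CIII, of which Cd24a gave 8.38 to 212, and 0 of the 14 were higher, or lower, in every pair. By number, 8, 0 and 5 of them were higher and 1, 4 and 6 lower in CIII. Flt3 was at 0 in all but CIII number 1 and Xcr1 at 3.14 or less. Batf3 stood at 2.66, 0 and 19.9 in VEH and at 7.94, 0 and 26.8 in CIII, and Zbtb46 at 18.3 in VEH number 2 and 0.722 or less elsewhere. In such bulk samples a difference in the number of cells that carry an mRNA cannot be told apart from a difference in its amount per cell.

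**Figure D1:**
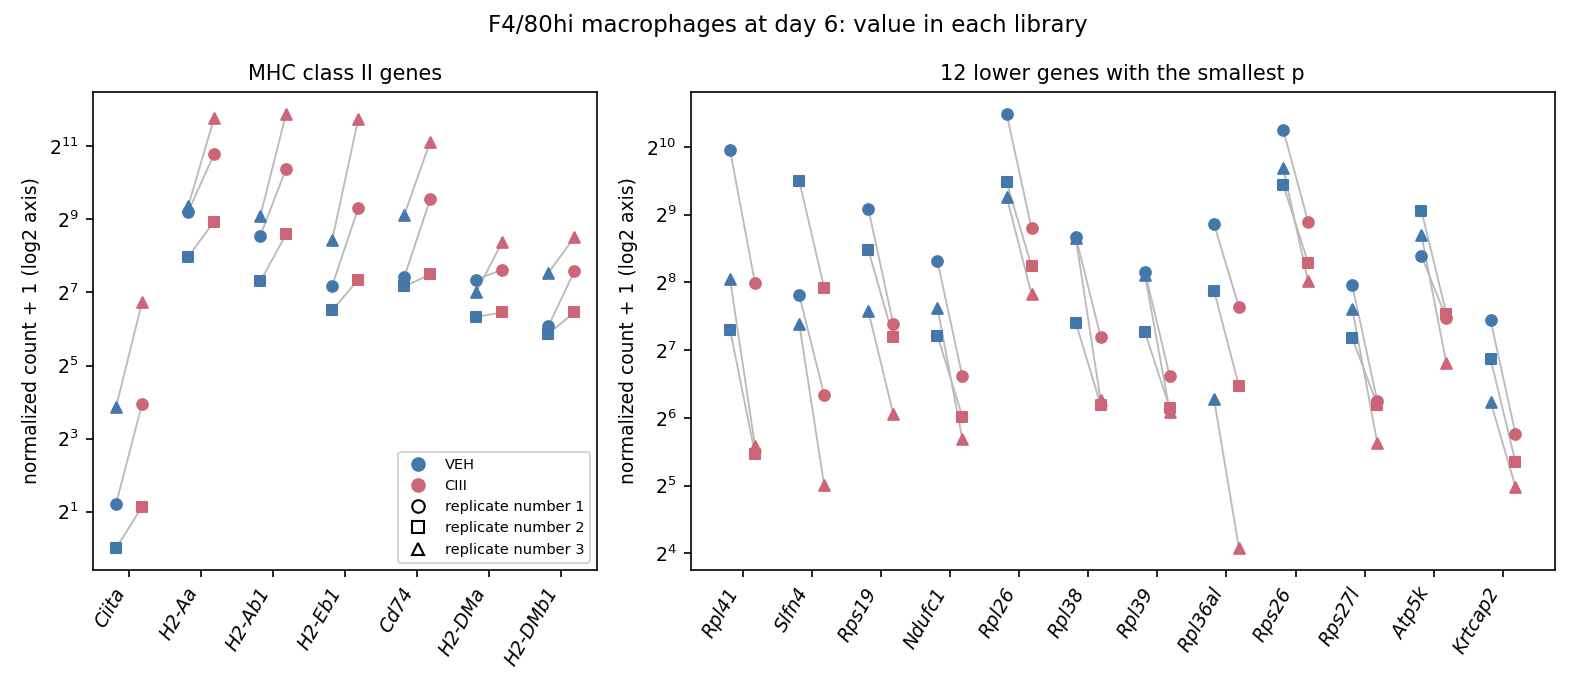
Normalized count plus 1 on a log2 axis in each of the 6 F4/80hi libraries, for the 7 tested MHC class II genes (left) and the 12 lower genes with the smallest p among those lower in all 3 pairs (right). Grey lines join libraries of the same number, and each line of H2-Ab1 goes up from VEH to CIII while each line of Rpl41 goes down.

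Other genes led the higher side with them. Cx3cr1, the receptor of the chemokine fractalkine (chr9:119901616-120069879), stood at 17.3, 13.1 and 74.4 normalized counts in VEH and at 67.1, 57.7 and 169 in CIII. CIII exceeded VEH in every pair, and the groups overlapped through VEH number 3. Its log2 difference was 1.71 (SE 0.32, unadjusted p = 0.000349), with an adjusted p of 0.148 in limma and of 0.0396 in DESeq2. Atp2b4, a plasma membrane calcium pump, stood at 17.3, 7.84 and 84.9 in VEH and at 55.6, 80.5 and 226 in CIII, a log2 difference of 2.08 (SE 0.39). Fndc3b, a protein with fibronectin type III domains, stood at 74.5, 39.2 and 145 in VEH and at 147, 98.5 and 395 in CIII, a log2 difference of 1.24. Igf2r, the receptor that carries mannose 6-phosphate enzymes to lysosomes, stood at 193, 158 and 73.4 in VEH and at 386, 320 and 153 in CIII, a log2 difference of 1.02 (SE 0.24). Each Igf2r pair differed by about the same amount, although number 3 was lower in both treatments. Ltb4r1, a receptor of leukotriene B4, stood at 5.32, 19.6 and 113 in VEH and at 34.7, 54.1 and 212 in CIII, a log2 difference of 1.60. The remaining 4 of the 12 higher genes with the smallest p were Rcn3, a calcium-binding protein of the endoplasmic reticulum (log2 difference 1.42), Nbeal1 (1.37) and the unclassified transcripts Gm45220 (1.87) and Gm44694 (1.53).

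Ribosomal protein genes were the largest group on the lower side. Each encodes a subunit of the cytoplasmic ribosome, and many of their mRNAs begin with a run of pyrimidines, the TOP motif, through which growth signals control their translation. The 30 bases around the start are shown for 3 genes that hold a run of at least 7 C or T in this window, in capitals (10 bases before and 20 after the RefSeq start on GRCm38.p6). In Rpl38 the first run spans the annotated start, and in Rps26 and Rpl39 the run lies downstream of it, so that their annotated mRNAs do not begin with it.
Rpl38: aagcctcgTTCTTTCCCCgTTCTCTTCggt
Rps26: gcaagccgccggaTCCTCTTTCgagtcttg
Rpl39: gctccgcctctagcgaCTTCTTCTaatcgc
They lie at chr11:114668570-114668599 (plus strand), chr10:128626487-128626516 (minus strand) and chrX:37085203-37085232 (minus strand). A run of this kind was found on the transcribed strand in 33 of the 59 tested ribosomal protein genes with a promoter entry (55.9%) and in 21.0% of the 6474 tested genes with one. CCGGAAG on either strand, the letters that ETS factors bind, was in the 300-base promoter of 40.7% of the ribosomal protein genes and of 23.8% of all.

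Rpl41, which encodes the smallest subunit (chr10:128548114-128549305), stood at 989, 157 and 263 normalized counts in VEH and at 253, 43.3 and 47.0 in CIII. CIII was about as far below VEH in each pair, at log2 differences of -1.96, -1.83 and -2.46, and the groups overlapped only through VEH number 2. The log2 difference was -2.08 (SE 0.25, unadjusted p = 1.2e-05, adjusted p = 0.102), a fold of 4.24 lower, and DESeq2 gave an adjusted p of 1.4e-06. Rpl26 stood at 1437, 712 and 614 in VEH and at 444, 302 and 226 in CIII, and Rps26 at 1221, 695 and 826 in VEH and at 476, 312 and 258 in CIII. Rpl38 stood at 407, 169 and 401 in VEH and at 146, 72.1 and 75.5 in CIII. All CIII values of these genes lay below all their VEH values, with log2 differences of -1.46, -1.40 and -1.69. Rps19 stood at 541, 355 and 190 in VEH and at 167, 145 and 65.6 in CIII, a log2 difference of -1.50 (SE 0.24). Rpl39 and Rpl36al had log2 differences of -1.56 and -1.61, and Rps27l, a close relative of Rps27 that p53 is known to induce, of -1.55. With the trend of transcript length subtracted, as described below, Rpl41 had -1.25, Rpl26 -0.64, Rps26 -0.66, Rpl38 -0.71 and Rps19 -0.84. Rpl39, Rpl36al and Rps27l then had -0.76, -1.28 and -0.62. All of these genes kept an unadjusted p under 0.05.

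All 80 tested ribosomal protein genes (of 82 listed) had a negative log2 difference, and 74 of them (92.5%) had an unadjusted p under 0.05 against 7.06% of all genes. In 78 of them CIII was lower in all 3 pairs (17.1% of all genes), and in 37 the groups did not overlap (6.08% of all genes were lower without overlap). Their median log2 difference was -1.18, a fold of 2.27 lower, and within numbers 1, 2 and 3 it was -1.28, -0.78 and -1.42. Without number 3 it was -1.01. With the length trend subtracted it was -0.64, and 40 of the genes were lower at p under 0.05, beside 4.03% of all genes. They took 3.97%, 2.26% and 2.07% of all reads in VEH and 1.67%, 1.29% and 0.952% in CIII, so that the groups did not overlap. Many ribosomal protein genes have processed pseudogenes whose reads can be shared with them. The 45 tested processed pseudogenes, whose parent genes were not examined, had a median log2 difference of -1.18. Of these, 25 were lower and 0 higher at p under 0.05, beside 7.06% lower among all genes.

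The nuclear-encoded subunits of the respiratory chain and ATP synthase, which carry electrons and make ATP in mitochondria, were lower to a smaller extent. Of the 78 tested genes (of 80 listed), 59 had an unadjusted p under 0.05 and all of these were lower in CIII, against 7.06% lower among all genes. Their median log2 difference was -0.93, a fold of 1.91 lower, with -1.05, -0.59 and -1.33 within the numbers and -0.80 without number 3. The medians were -0.91 for complex I (26 of 36 genes at p under 0.05), -0.83 for complexes II and III (8 of 14), -0.89 for complex IV (10 of 12) and -1.22 for ATP synthase (15 of 16), again beside 7.06% lower among all genes. With the trend of transcript length subtracted, as described below, these medians were -0.41 (7 lower), -0.35 (4 lower), -0.16 (1 lower and 1 higher) and -0.53 (7 lower), beside 4.03% lower and 4.11% higher among all genes in that fit. Ndufc1, a subunit of complex I, stood at 316, 148 and 196 normalized counts in VEH and at 96.7, 63.7 and 50.3 in CIII, a log2 difference of -1.61 (SE 0.27). Atp5k, a subunit of ATP synthase, stood at 335, 532 and 414 in VEH and at 176, 185 and 111 in CIII, a log2 difference of -1.44. Cox7b of complex IV stood at 491, 248 and 296 in VEH and at 180, 153 and 74.4 in CIII, and Uqcr10 of complex III at 156, 107 and 91.2 in VEH and at 53.4, 28.8 and 52.5 in CIII. In all 4 genes every CIII value lay below every VEH value. With the length trend subtracted, Ndufc1 (log2 difference -1.26) and Cox7b (-0.88) kept an unadjusted p under 0.05, but Atp5k (-0.35, unadjusted p = 0.249) and Uqcr10 (-0.37, unadjusted p = 0.328) did not. The 7 tested mRNAs that mitochondria encode themselves had a median of -0.59, but -0.08, -0.29 and -1.43 within the numbers, and 0 of them had a p under 0.05.

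Lists of protein synthesis and turnover, and one of antioxidant and iron handling genes, had negative and smaller medians. The mitochondrial ribosomal proteins had a median of -0.55 (16 of 69 lower and 0 higher at p under 0.05), the translation factors of -0.46 (10 of 37 and 0), the proteasome of -0.40 (8 of 31 and 0) and the antioxidant and iron handling genes of -0.62 (7 of 21 and 0), beside 7.06% lower among all genes. With the length trend subtracted, these medians were -0.26 (7 lower), -0.32 (7 lower), -0.16 (3 lower) and -0.32 (5 lower), beside 4.03% of all genes. Among the translation factors, Eef1b2, which recharges the elongation factor eEF1A, stood at 489, 388 and 334 normalized counts in VEH and at 222, 177 and 185 in CIII. The proteasome subunit Psmb4 stood at 278, 229 and 385 in VEH and at 136, 115 and 104 in CIII, a log2 difference of -1.30. Txn1, the thiol reductant thioredoxin, stood at 1619, 875 and 1157 in VEH and at 840.3, 546 and 272 in CIII. In these 3 genes the groups did not overlap. Tmsb4x, which binds actin monomers, stood at 7488, 6118 and 6771 in VEH and at 4197, 2629.5 and 699.6 in CIII, and Cfl1, which severs actin filaments, at 655, 764 and 540 in VEH and at 434, 377 and 153 in CIII. Both lay below VEH in all CIII libraries, and 5 of 28 actin and motility genes were lower at p under 0.05 (median -0.35, and -0.20 with the length trend subtracted). Gapdh, a glycolytic enzyme, stood at 110.4, 52.3 and 55.6 in VEH and at 39.7, 20.4 and 7.11 in CIII, whereas the 13 tested glycolysis genes had a median of -0.05 with 2 higher and 1 lower at p under 0.05 (5.47% and 7.06% of all genes). Krtcap2, a subunit of the enzyme that attaches N-glycans, had a log2 difference of -1.49, and the folding factors Manf and Creld2 of -1.18 and -1.26.

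**Figure D2:**
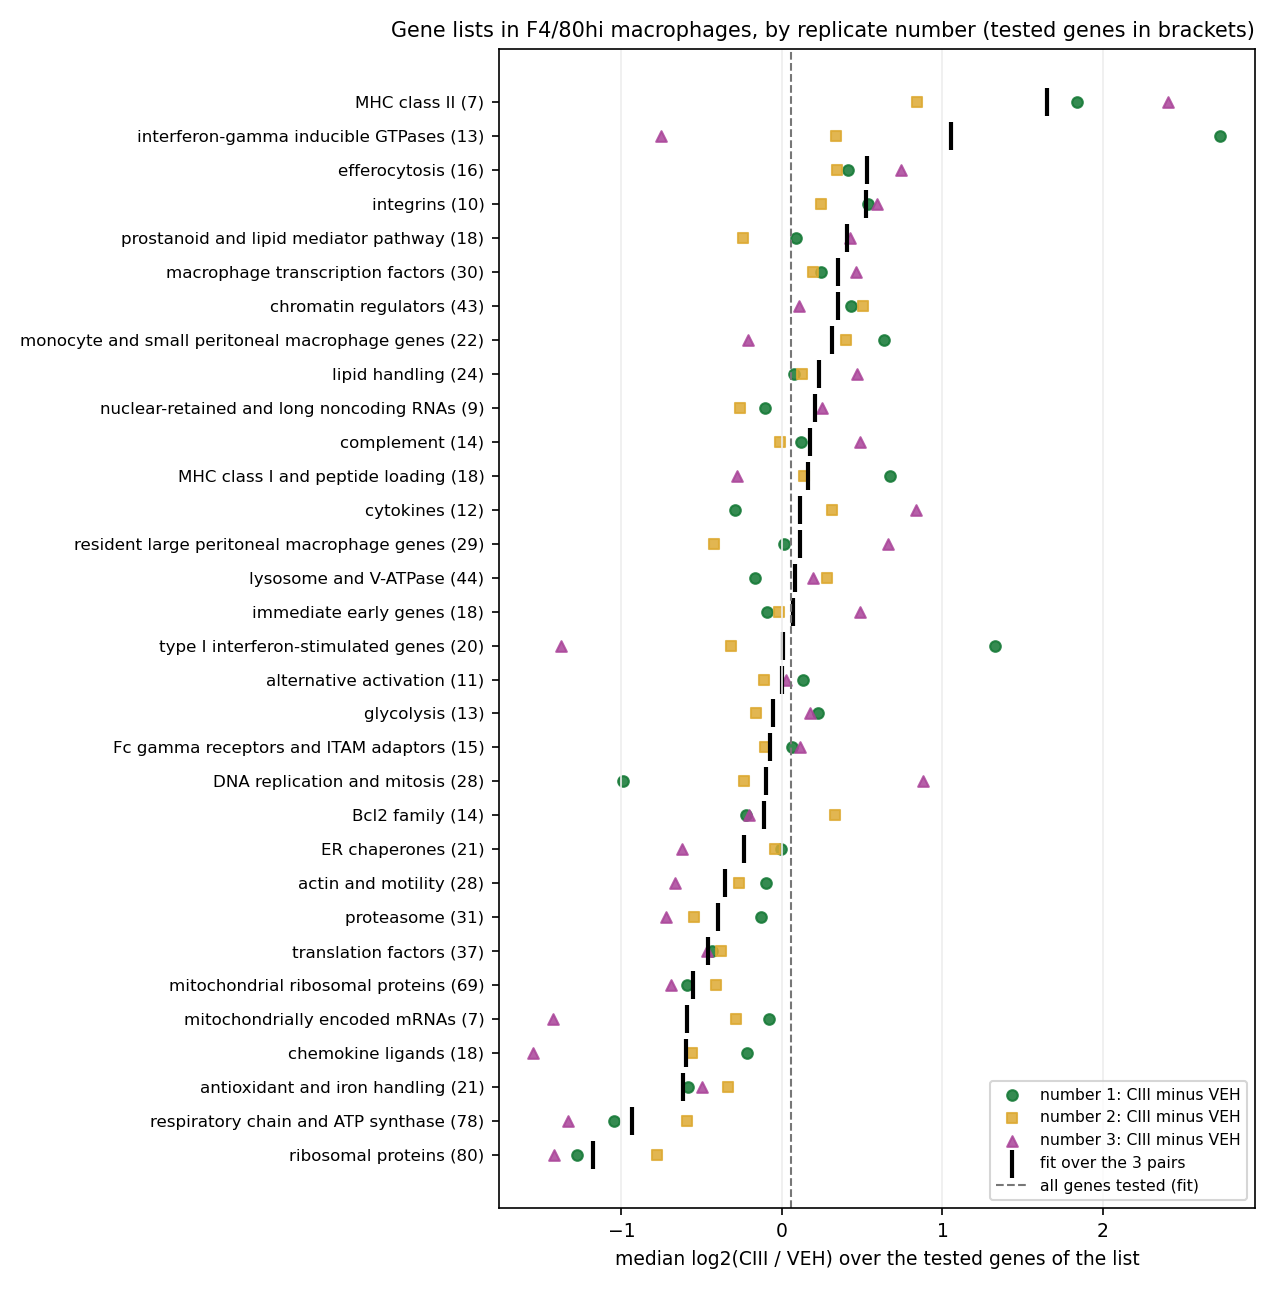
Median log2(CIII / VEH) of each gene list with at least 7 tested genes, from the fit over the 3 pairs (black bars) and within each replicate number (symbols), beside the median of all genes tested (dashed line at 0.06). The 3 symbols of ribosomal proteins, the respiratory chain and MHC class II lie on one side of 0, and those of the interferon lists lie on both sides.

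The ribosomal and respiratory mRNAs are short, and the differences followed transcript length over all genes. The tested genes were put in 8 classes by the length of their principal GENCODE transcript. In the class of 67 to 1335 nt the median log2 difference was -0.57, with 12 genes higher and 324 lower at p under 0.05. In the class of 6119 nt and more it was 0.35, with 133 higher and 2 lower. The medians of the classes between them went up step by step from -0.14 to 0.28, and the shortest class was the lowest and the longest class the highest in each of the 3 pairs. By library, the median deviation of the shortest class from the gene means was 0.58, 0.16 and 0.22 on the log2 scale in VEH and -0.05, -0.20 and -0.50 in CIII. The groups did not overlap in this measure. Within the shortest class the 67 ribosomal protein genes had a median of -1.22 and the 54 respiratory genes of -1.001, and the 862 genes of neither these nor the other translation lists had -0.46. After the trend with length had been subtracted from each library, the ribosomal protein median was -0.64 with 40 genes lower at p under 0.05, and the respiratory median -0.37 with 19 lower. The MHC class II median was then 1.98. Over all genes, 337 (4.11%) were then higher and 330 (4.03%) lower at p under 0.05. The 43 chromatin regulators, with a median length of 8507 nt, had a median of 0.35, and of 0.04 with the trend subtracted. This length trend differed between the treatments in all 3 pairs, and beyond the subtraction its part in the differences of short and long mRNAs was not tested.

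**Figure D3:**
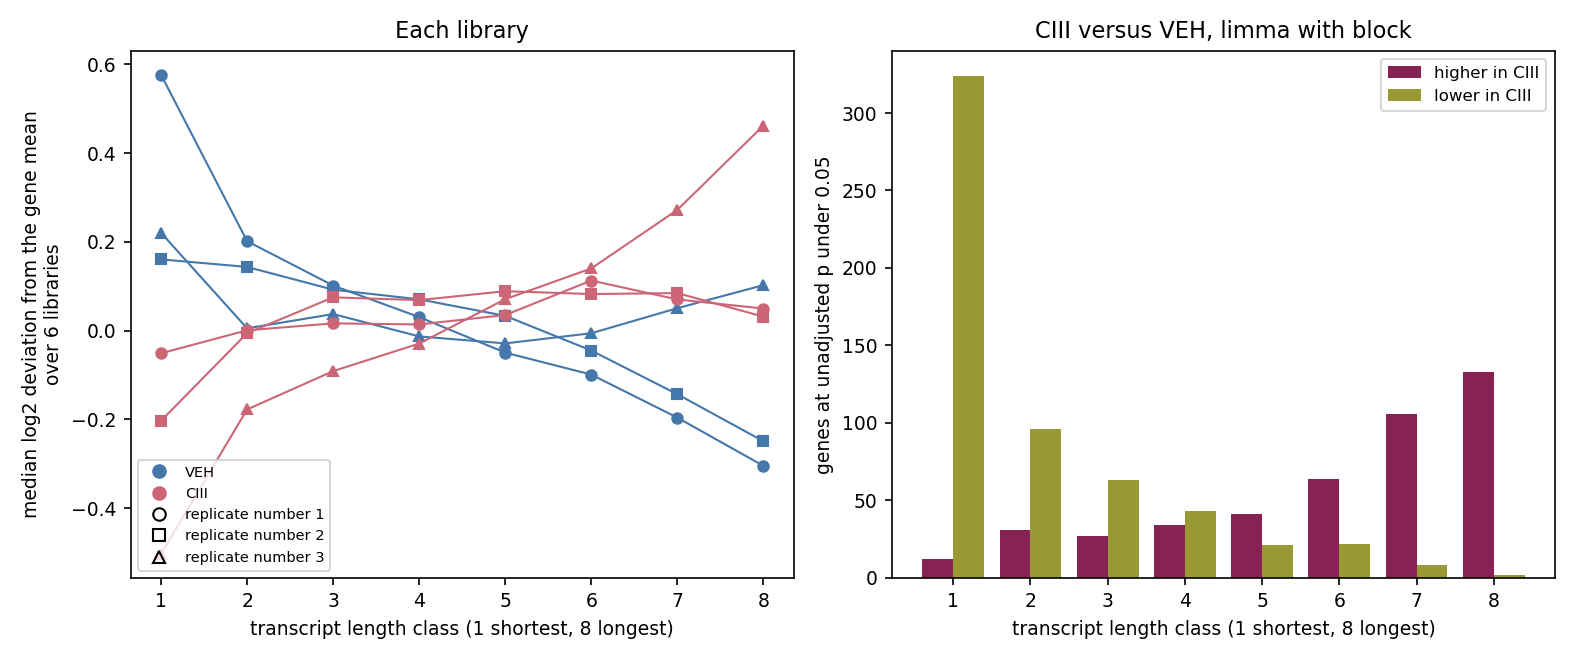
Left, median log2 deviation of the genes of each transcript length class from their mean over the 6 F4/80hi libraries, one line per library. Right, number of genes at an unadjusted p under 0.05 in each class, from 324 lower in the shortest to 133 higher in the longest class.

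Interferon-inducible genes differed between the pairs. The IFN-γ-inducible GTPases, which attack the vacuoles of intracellular microbes, had a median log2 difference of 1.06 over 13 tested genes, with 3 higher at p under 0.05 beside 5.47% of all genes. Within numbers 1, 2 and 3 this median was 2.73, 0.34 and -0.76. Gbp2b was higher in CIII in all pairs, at 1.33, 5.23 and 69.2 normalized counts in VEH and at 18.8, 12.02 and 250.5 in CIII. Igtp stood at 21.3, 18.3 and 152 in VEH and at 188, 36.1 and 224 in CIII. In both genes VEH number 3 was as high as some CIII libraries. The 20 tested type I interferon-stimulated genes had a median of 0.01 over all pairs and of 1.33, -0.32 and -1.38 within the numbers. Bst2, which tethers budding viruses, was the only one of them at p under 0.05, beside 7.06% lower among all genes. It stood at 417, 405 and 557 in VEH and at 228, 255 and 213 in CIII. Its log2 difference of -0.97 was -0.33 with the length trend subtracted (unadjusted p = 0.190). Of the MHC class I and peptide loading genes, the peptide transporter Tap1 (log2 difference 0.86) and Tapbp (0.70) were higher at p under 0.05, beside 5.47% of all genes. The median of the 18 tested genes of this list was 0.16.

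Slfn4, a Schlafen family gene of myeloid cells (chr11:83175186-83190216), had the second smallest p of all genes. It stood at 223, 724 and 167 normalized counts in VEH and at 80.1, 242 and 31.2 in CIII. CIII was lower in every pair, and the groups overlapped through number 2. The log2 difference was -1.81 (SE 0.27, unadjusted p = 7.3e-05, adjusted p = 0.148), with an adjusted p of 0.000369 in DESeq2, and its transcript of 3958 nt is not short. Chemokine ligands had a median of -0.60, with 3 of 18 lower and 0 higher at p under 0.05, beside 7.06% lower among all genes. With the length trend subtracted their median was -0.13, with 1 lower and 1 higher (4.03% and 4.11% of all genes). Ccl24, an attractant of eosinophils, stood at 59.8, 123 and 3.14 in VEH and at 7.22, 38.5 and 0 in CIII, a log2 difference of -2.20. Ccl4 stood at 41.2, 48.3 and 31.4 in VEH and at 17.3, 22.8 and 6.56 in CIII without overlap. Pf4, also a platelet product, stood at 2421, 1207 and 73.4 in VEH and at 707, 921 and 20.8 in CIII. With the length trend subtracted, Ccl24 kept an unadjusted p under 0.05 (log2 difference -1.87), and Ccl4 (-0.69) and Pf4 (-0.48) had an unadjusted p of 0.0989 each. Among 12 tested cytokines Il1rn, the antagonist of the IL-1 receptor, stood at 54.5, 73.2 and 19.9 in VEH and at 14.4, 10.8 and 10.4 in CIII, a log2 difference of -1.79, and was the only one at p under 0.05. After subtraction of the length trend, 3 of the cytokines were higher and 2 lower (4.11% and 4.03% of all genes), among them Il18, which went from 0.83 (unadjusted p = 0.0606) to 1.42 (unadjusted p = 0.00429).

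The genes of the inhibited pathway were mostly low. Ptges, the target of CIII, was under the minimum, at 1.33, 5.23 and 5.24 normalized counts in VEH and at 7.94, 15.6 and 3.83 in CIII, and Ptgs2 was at 0 in all 6 libraries. An enzyme inhibitor need not alter the mRNA of its target, so this is no check of the labels. Ptgs1 stood at 124, 329 and 40.9 in VEH and at 135, 156 and 204 in CIII, with CIII lower in number 2 and higher in the others. The receptor Ptger2 stood at 11.97, 9.14 and 22.01 in VEH and at 20.2, 14.4 and 32.3 in CIII, and Ptger4 at 11.97, 30.05 and 67.1 in VEH and at 42.6, 58.9 and 66.7 in CIII. Ptger2 was higher in each pair (log2 difference 0.62, unadjusted p = 0.182), and Ptger4 in numbers 1 and 2 (0.90, unadjusted p = 0.0423, and 0.0557 with the length trend subtracted). Abcc4, which exports prostaglandins, stood at 18.6, 15.7 and 37.7 in VEH and at 65.7, 51.7 and 57.4 in CIII and did not overlap (log2 difference 1.34). Alox15, the lipoxygenase of resident Mϕ that makes pro-resolving lipids, stood at 925, 1359 and 28.3 in VEH and at 645, 636 and 11.5 in CIII, a log2 difference of -0.95 (SE 0.25, unadjusted p = 0.00428). Of the 18 tested genes of the prostanoid and lipid mediator list (of 29), 3 were higher and 1 lower at p under 0.05, beside 5.47% and 7.06% of all genes, with a median of 0.41.

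Of the genes for the uptake of dying cells and for adhesion, a few were higher in CIII. Mertk, the receptor used in the sort, stood at 174, 246 and 187 normalized counts in VEH and at 325, 386 and 315 in CIII. All CIII values lay above all VEH values, with a log2 difference of 0.77 (SE 0.24, unadjusted p = 0.00935). Itgb5, an integrin chain that binds apoptotic cells through Mfge8, stood at 27.9, 13.1 and 90.1 in VEH and at 67.1, 85.3 and 158 in CIII, a log2 difference of 1.55. Of 16 tested efferocytosis genes, 14 had a positive difference (median 0.53) and 2 were higher at p under 0.05, beside 54.2% and 5.47% of all genes. With the length trend subtracted their median was 0.42, with 4 higher and 0 lower (4.11% and 4.03% of all genes). Itgb7, a chain of the gut-homing integrin, stood at 136, 91.4 and 73.4 in VEH and at 180, 263 and 270 in CIII without overlap, a log2 difference of 1.26. All 10 tested integrin genes had a positive difference (median 0.53), with 2 at p under 0.05, beside 54.2% and 5.47% of all genes. Their median length was 4346 nt, and with the length trend subtracted their median difference was 0.27. In lipid handling, the cholesterol exporter Abca1 stood at 51.8, 81.0 and 148 in VEH and at 294, 193 and 191 in CIII, and Acsl1, which activates fatty acids, at 6.65, 9.14 and 21.0 in VEH and at 36.8, 22.8 and 41.6 in CIII. Neither gene overlapped, and the 24 tested genes had a median of 0.23 with 3 higher and 2 lower at p under 0.05 (5.47% and 7.06% of all genes). Bcl2, which blocks apoptosis, stood at 42.5, 35.3 and 32.5 in VEH and at 84.5, 62.5 and 109 in CIII, and the log2 difference was 1.16 (SE 0.31, unadjusted p = 0.00392). Bcl2 did not overlap either. In the same family the pro-apoptotic Bcl2l11 was higher (log2 difference 0.82, unadjusted p = 0.0198) and the anti-apoptotic Bcl2a1b lower (-1.65, unadjusted p = 0.00886), neither at p under 0.05 with the length trend subtracted, and the median of the 14 tested members was -0.11.

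The genes that define resident large peritoneal Mϕ had a median of 0.11 over 29 tested genes, with 2 higher and 1 lower at p under 0.05, near the 5.47% and 7.06% of all genes. With the length trend subtracted, 5 were higher and 2 lower, beside 4.11% and 4.03% of all genes. The medians of this list were 0.01, -0.42 and 0.66 within the numbers, and single genes between -1.30 and 1.38. The macrophage transcription factors had a median of 0.35 over 30 genes, with 3 higher and 1 lower, again beside 5.47% and 7.06%. The monocyte and small peritoneal Mϕ list had a median of 0.31 over 22 genes with 4 higher and 0 lower, beside 5.47% and 7.06% of all genes, within the numbers 0.64, 0.40 and -0.21, and it includes Cx3cr1, Itgb7 and Ccr2. The DNA replication and mitosis list had a median of -0.10 but -0.99, -0.23 and 0.88 within the numbers.

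A further list holds the genes that the study picked from both subpopulations. Because they were picked from these libraries, their counts are no independent evidence. Of the 19 genes listed and tested, 5 were higher and 11 lower at an unadjusted p under 0.05, beside 5.47% and 7.06% of all genes. Besides those described, Foxo3, a transcription factor of stress resistance, stood at 22.6, 19.6 and 32.5 normalized counts in VEH and at 41.1, 63.7 and 90.3 in CIII, and Chsy1, an enzyme of chondroitin synthesis, at 10.6, 22.2 and 44.0 in VEH and at 43.3, 46.9 and 102 in CIII. Axl, a receptor related to Mertk, stood at 21.3, 32.7 and 25.2 in VEH and at 40.4, 21.6 and 158 in CIII, with the difference carried by numbers 1 and 3. Creld2 stood at 58.5, 60.1 and 56.6 in VEH and at 23.8, 28.8 and 19.7 in CIII, and Manf at 90.4, 158 and 126 in VEH and at 67.9, 46.9 and 47.0 in CIII, both without overlap. Minos1, Bola2, Pdap1, Fau, Rpl35 and Cstb had log2 differences between -1.43 and -1.06 and unadjusted p values between 0.000509 and 0.00988. After subtraction of the length trend, Fau (-0.37, unadjusted p = 0.223), Cstb (-0.34, unadjusted p = 0.294) and Fabp5 (-0.47, unadjusted p = 0.282) no longer reached 0.05, and 8 rather than 11 genes of the list were lower (4.03% of all genes). Fabp5 (log2 difference -0.98, unadjusted p = 0.0493) was lower in numbers 1 and 3 only. Ramp3 (-1.41, unadjusted p = 0.0829) and Ccl12 (-1.88, unadjusted p = 0.0504) did not reach 0.05, and Ccl12 stood at 9.31, 5.23 and 65.0 in VEH and at 7.94, 1.20 and 3.28 in CIII.

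Of 17 T and NK cell markers none passed the minimum, and their summed level was 3.92 to 106 normalized counts in VEH, highest in number 3, and 12.99 to 24.1 in CIII. The summed level of the 15 neutrophil markers was 74.5 to 142 in VEH and 40.5 to 74.4 in CIII, and Ly6g, Mpo and Elane were at 0 in all libraries. S100a8, shared by neutrophils and monocytes, stood at 39.9, 24.8 and 81.8 in VEH and at 12.3, 6.01 and 13.7 in CIII, a log2 difference of -2 (SE 0.40, unadjusted p = 0.000629), which was -1.05 with the length trend subtracted (unadjusted p = 0.0267). The eosinophil and mast cell markers summed to at most 6.65 and the mesothelial and fibroblast markers to at most 4.33 in any library. The red blood cell and platelet markers summed to 1207 to 2428 in VEH and 35.6 to 922 in CIII, mostly from Pf4, which peritoneal Mϕ also express, except in VEH number 3. There Hbb-bs, a haemoglobin chain, stood at 966, above Adgre1 in the same library. Haemoglobin mRNA took 0.144% of the reads of VEH number 3 and at most 0.00143% elsewhere. The 5 tested red blood cell and platelet markers had a median log2 difference of -2.01, but 0, 0 and -6.20 within the numbers. Of these markers 1 (Pf4) was lower at p under 0.05, beside 7.06% lower among all genes.

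The same contrast was set beside F4/80lo Mϕ in a joint fit over all 12 libraries. Its block was the replicate number within each subpopulation. Libraries of both subpopulations with the same treatment and number were thus taken as independent, and whether they share lavages is not described. Of 7834 genes, 428 (5.46%) had a difference between the 2 responses at an unadjusted p under 0.05 and 0 at an adjusted p under 0.05, with the smallest at 0.895. The median log2 difference of the ribosomal protein genes was -1.19 in F4/80hi and -0.41 in F4/80lo Mϕ, and 34 of the 80 genes had a difference between the responses at p under 0.05. The length trend was not subtracted in the joint fit, and its part in this contrast was not tested. Rpl41 differed by -2.09 in F4/80hi and by -0.41 in F4/80lo Mϕ (unadjusted p of the difference 0.000324). The respiratory chain and ATP synthase had medians of -0.94 and -0.31, with 12 of 77 genes at p under 0.05. The MHC class II median was 1.64 in F4/80hi and 0.88 in F4/80lo Mϕ, and 0 of 7 genes had a p under 0.05 for the difference. Abca1 had log2 differences of opposite sign, 1.36 in F4/80hi and -0.51 in F4/80lo Mϕ (unadjusted p of the difference 0.00849). Psmb4 had -1.31 and 0.20 (unadjusted p of the difference 0.00159). Slfn4 had -1.82 in F4/80hi and -1.70 in F4/80lo Mϕ (unadjusted p of the difference 0.861), and Cx3cr1 had 1.70 and 1.501 (0.592).

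**Figure D4:**
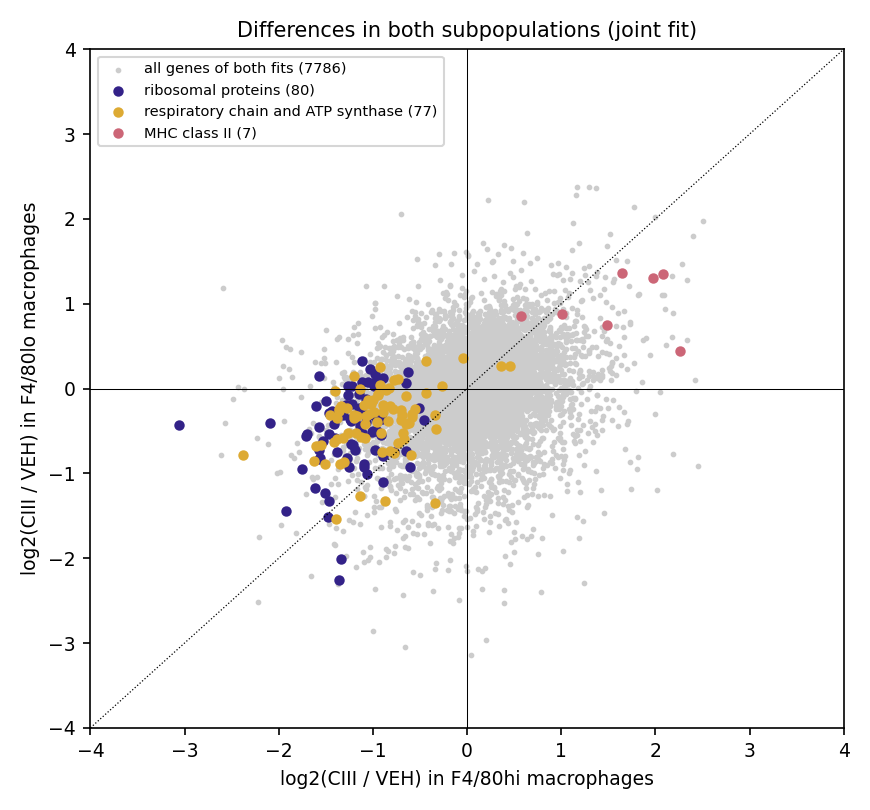
Log2(CIII / VEH) of each gene in F4/80hi (x axis) and F4/80lo Mϕ (y axis) from the joint fit, with 3 lists in colour and a dotted line where both are equal. Ribosomal protein genes centre on -1.19 along x and -0.41 along y, and the 7 MHC class II genes lie above 0 on both axes.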

How the data were processed

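The authors prepared 3′ mRNA libraries with unique molecular identifiers, mapped the reads to GRCm38 with STAR, counted them per gene with HTSeq and divided the counts by DESeq2 size factors. The deposited signal values are these normalized counts, and all of them in the 6 libraries were whole multiples (within 0.01) of the value of 1 read, 0.547 to 1.33, from which whole reads were recovered. Of 47643 identifiers, 47224 matched a GENCODE symbol and GRCm38 coordinates.

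Normalized counts were tested as log2(value + 1) with limma 3.58.1 in R 4.3.3 (eBayes with trend), with the replicate number as a block, two-sided, with Benjamini-Hochberg adjustment over 8206 genes. Fold changes on this scale understate the differences of low genes. SE is that of limma, and "p under 0.05" without further words is unadjusted. The block was set for this comparison, and no label says that the numbers pair the libraries. The deviations from the treatment means correlated within number 1, 2 and 3 at r = 0.248, 0.481 and 0.677 across genes. Libraries with different numbers reached at most 0.369, for VEH number 1 with CIII number 2. This exceeds the 0.248 within number 1, so the correlations do not show that number 1 forms a pair. Recovered reads entered edgeR 4.0.16 and DESeq2 1.42.0 as alternatives, and the joint fit with F4/80lo Mϕ after scaling over all 12 libraries, since the authors normalized both tables separately. The length trend was a lowess curve (span 0.3) on transcript length. The fit was tested on simulated data.

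Genes named are the 12 higher and 12 lower genes with the smallest p among those with 1 direction in all pairs, up to 4 genes with the smallest p of a list, the sort markers, the PGE2 pathway and the genes the study picked, except where stated. The members and all 43 gene lists were chosen with earlier results of these data known. Of the alternatives, 17 were set at the start for the main comparison and 4 were chosen after seeing the data. Figures were drawn with matplotlib 3.10.9.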

Additional observations from a re-analysis of the deposited data

How the results depend on the processing

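The medians of the ribosomal, respiratory and MHC class II lists kept their sign under every alternative run. The count of genes at an adjusted p under 0.05, 0 with the block in limma, was 0 in edgeR and 59 in DESeq2. It was 16 with no filter on low values, 59 in numbers 2 and 3 alone, and between 0 and 59 when 1 library was left out, with 59 without VEH number 1 and 56 without CIII number 1. The counts at an unadjusted p under 0.05 were 449 higher and 579 lower. They were 246 higher in DESeq2, 737 with no filter, 723 at the same total, and between 307 and 481 with 1 library left out. The lower genes were 330 with the length trend subtracted and between 424 and 522 with 1 library left out. Without the replicate block 119 were higher and 247 lower, and 126 rather than 428 genes differed between the responses of the subpopulations. In limma without the block the smallest adjusted p was 0.976. The unadjusted p of H2-Ab1, H2-Eb1 and Rpl41 was then 0.0369, 0.0661 and 0.0341. With 1 library left out, the medians ranged from -1.36 to -1.01 (ribosomal), from -1.14 to -0.80 (respiratory) and from 1.27 to 2.07 (MHC class II). With the length trend subtracted the first 2 were -0.64 and -0.37. The log2 difference of Ptgs1, 0.45 in the main fit, was -0.47 in numbers 1 and 2 alone and between -0.47 and 1.21 with 1 library left out, negative without either library of number 3. When a library is left out, its partner no longer adds to the blocked comparison. Where no cause is given by the construction of an alternative, the cause was not tested. Depth limits the genes of low level most in VEH numbers 1 and 2, where 1 read is worth 1.33 and 1.31 normalized counts.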
